A study of Mus musculus with 16 samples.

Results

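The genes described here are 45 genes of DNA replication and S phase, picked by symbol for their place in origin licensing, the replicative helicase, the DNA polymerases, the sliding clamp and its loader, lagging strand processing, deoxynucleotide synthesis, chromatin assembly and fork protection. All 45 were among the 25239 genes counted, and all 45 were among the 14124 genes with enough reads to be tested. No measured value entered that choice, although earlier results of these data were known when it was made.

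Replication starts at origins that are licensed in G1, when the origin recognition complex, Cdc6 and Cdt1 load the MCM2-7 ring onto DNA. In S phase Cdc45 and the GINS complex join the ring and activate it as a helicase, polymerase alpha-primase lays primers, polymerases delta and epsilon extend them, and PCNA, loaded by replication factor C, tethers these enzymes. Many of these genes are transcribed late in G1 under E2F factors, and hematopoietic stem cells (HSCs) of adult bone marrow are known for spending most of their time outside the cell cycle.

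The libraries were bulk RNA-seq of mouse bone marrow HSCs from SelpKO animals, which lack a working gene for the adhesion receptor P-selectin, and SelpWT animals, all aged 4 to 6 months. KO cells gave 3 libraries with PSGL-1, 3 with vehicle and 2 fresh. WT cells gave 2 libraries with PSGL-1, 3 with vehicle and 3 fresh. Fresh cells were sequenced after sorting without treatment. Cultured cells were kept in StemSpan medium with penicillin, streptomycin, 10% fetal calf serum (FCS), Flt-3 ligand at 1 ng/mL, interleukin-11 (IL-11) at 20 ng/mL and stem cell factor (SCF) at 300 ng/mL. PSGL-1, a ligand of P-selectin, was present at 125 ng/mL for 24 hours in the PSGL-1 groups. How long the vehicle cultures were kept is not stated in the labels. Nor do the labels tie the libraries of a group to different animals, so every p-value reflects only the scatter of these libraries, possibly technical scatter. In bulk RNA, fewer cells in S phase and less RNA per cell cannot be told apart.

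The libraries held 12590539 to 24690824 counts. The detection floor of 3 counts was worth 0.122 to 0.238 CPM, the count per 1000000 counts of a library. Selp itself reached 0 to 12.4 CPM in the 8 KO libraries and 16.8 to 183 CPM in the 8 WT libraries. The HSC genes Procr, Hlf and Kit were detected in all 16 libraries, and Slamf1 was at 0 in 3. Of 10 erythroid markers the 3 hemoglobin genes Hba-a1, Hbb-bs and Hbb-bt were at 0 in all 16 libraries, while Car2 ran from 430 to 992 CPM in cultured libraries and from 1473 to 2750 CPM in fresh ones. Of 8 B and T cell markers Ms4a1, Cd3e, Cd3d and Cd8a were at 0 in all 16, while Cd79b was detected in each. Several marker sums moved with culture without overlap. In cultured libraries HSC markers summed to 1258 to 2064 CPM, progenitor markers to 719 to 1030 CPM, erythroid markers to 474 to 1009 CPM and granulocyte and monocyte markers to 82.3 to 241 CPM. In fresh libraries these sums were 2108 to 2814, 263 to 640, 1586 to 2847 and 443 to 658 CPM, in the same order. The part of these marker levels in the results below was not tested. Among the libraries, 2 stood apart. Detected genes numbered 9035 in WT PSGL-1 replicate 1 and 11101 to 13480 elsewhere. KO fresh replicate 1 had 5.41% of its counts in its top 10 genes, against 3.3% to 4.32% elsewhere. Some of the counts and sums that rest on either are given with and without it, and the others only with it.

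In vehicle culture 7 of the 45 genes were higher than in fresh cells in both genotypes by the test described below, as were 0.729% of all tested genes. The stretches upstream of the 5 with the smallest adjusted p are shown because these genes moved together with culture. Each covers 250 bases before the annotated start, written 5′ to 3′ along the gene, from RefSeq on GRCm38.p6. Capitals mark the E2F letters TTTGGCGC, TTTCCCGC, TTTCGCGC or TTTGCCGC, the CCAAT box, and TTTGAA, the letters of the cell cycle homology region, on either strand. The windows are chr19:10204394-10204643 (minus strand) for Fen1, chr6:88898781-88899030 (minus) for Mcm2, chr7:102441445-102441694 (plus) for Rrm1, chr2:132253181-132253430 (minus) for Pcna and chr8:75109259-75109508 (plus) for Mcm5.
Fen1: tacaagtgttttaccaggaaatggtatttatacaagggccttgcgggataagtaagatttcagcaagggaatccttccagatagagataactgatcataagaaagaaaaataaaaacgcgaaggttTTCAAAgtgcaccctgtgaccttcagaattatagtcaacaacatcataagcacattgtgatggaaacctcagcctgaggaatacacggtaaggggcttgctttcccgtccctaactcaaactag
Mcm2: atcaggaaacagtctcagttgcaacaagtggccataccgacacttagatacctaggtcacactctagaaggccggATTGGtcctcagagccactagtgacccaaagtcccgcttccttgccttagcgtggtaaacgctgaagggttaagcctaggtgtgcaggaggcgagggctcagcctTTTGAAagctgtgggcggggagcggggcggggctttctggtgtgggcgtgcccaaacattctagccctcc
Rrm1: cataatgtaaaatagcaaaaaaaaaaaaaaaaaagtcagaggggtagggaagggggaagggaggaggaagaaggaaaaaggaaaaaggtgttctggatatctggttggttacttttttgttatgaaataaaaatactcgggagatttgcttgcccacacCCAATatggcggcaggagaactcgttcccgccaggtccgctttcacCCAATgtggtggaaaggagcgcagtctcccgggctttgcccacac
Pcna: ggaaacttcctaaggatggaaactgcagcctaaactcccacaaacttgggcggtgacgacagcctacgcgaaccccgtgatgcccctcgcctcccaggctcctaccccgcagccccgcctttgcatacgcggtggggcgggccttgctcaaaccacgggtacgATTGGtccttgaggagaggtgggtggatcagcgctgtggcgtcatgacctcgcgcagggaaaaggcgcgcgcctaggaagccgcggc
Mcm5: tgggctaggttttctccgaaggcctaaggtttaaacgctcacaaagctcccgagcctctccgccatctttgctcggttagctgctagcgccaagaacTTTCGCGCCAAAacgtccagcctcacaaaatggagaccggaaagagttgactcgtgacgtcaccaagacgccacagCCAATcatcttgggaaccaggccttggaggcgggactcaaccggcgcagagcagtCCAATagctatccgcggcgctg

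Of these 5 windows, the letters for E2F were found in the Mcm5 window alone, as a pair of overlapping matches in TTTCGCGCCAAA. The CCAAT box was found upstream of Mcm2, Rrm1, Pcna and Mcm5, and TTTGAA upstream of Fen1 and Mcm2. Fen1 has another RefSeq window, chr19:10203872-10204171 (minus), not shown here, which held no E2F letters, CCAAT or TTTGAA. Among the 45 genes, 36 had a RefSeq promoter window, here 250 bases before to 50 after the start. The E2F letters stood in 15 of these 36 (41.7%), against 704 of 27025 mouse genes with such windows (2.6%). CCAAT stood in 21 of 36 (58.3%, against 41.06% of all genes) and TTTGAA in 5 of 36 (13.9%, against 20.23%). A match is a description of the letters, and a window without one says nothing of the factor. Short windows around the E2F letters, in capitals, 1 for each gene, are shown for 6 genes of origin licensing and the MCM ring, whose products assemble in 1 complex. They lie at chr4:108579418-108579443 (plus) for Orc1, chr11:98908004-98908029 (plus) for Cdc6, chr8:122568038-122568063 (plus) for Cdt1, chr1:20820263-20820283 (minus) for Mcm3, chr1:128359795-128359824 (minus) for Mcm6 and chr5:138171851-138171876 (minus) for Mcm7.
Orc1: cggttagtgGCGCGAAAagttttctc
Cdc6: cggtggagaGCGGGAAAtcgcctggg
Cdt1: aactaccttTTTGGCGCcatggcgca
Mcm3: ttgggaagtTTTGGCGCcaag
Mcm6: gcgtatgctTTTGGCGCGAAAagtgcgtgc
Mcm7: gtgacgacgTTTCGCGCcaatttcgg

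The 15 genes with E2F letters had a median log2 fold change with vehicle culture of 1.39 in KO and 0.92 in WT. The 21 genes with a window but without these letters had medians of 1.42 in KO and 0.78 in WT. The ranges of both sets overlapped in each genotype.

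Summed over the 45 genes, replication transcripts took 1.13% to 1.19% of the counts in KO vehicle libraries, against 0.375% and 0.547% in KO fresh libraries. In WT they took 1.13% to 1.15% with vehicle, against 0.559% to 0.729% fresh. The summed level was 11930, 11306 and 11727 CPM in KO vehicle libraries and 3746 and 5468 CPM in KO fresh libraries. In WT it was 11477, 11399 and 11304 CPM with vehicle and 7291, 5585 and 6903 CPM fresh. All cultured libraries lay above all fresh ones in both genotypes. The ratio of the mean sums was 2.53 in KO, or 2.13 without KO fresh replicate 1, and 1.73 in WT.

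**Figure D1:**
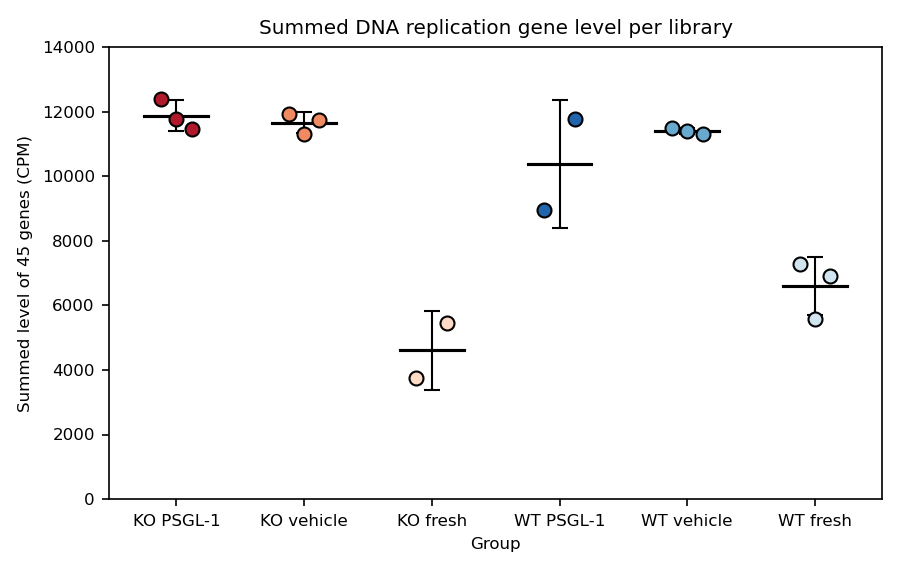
Summed level of the 45 genes in CPM (y axis) in each library (points) of the 6 groups (x axis), with the group mean (line) and SD (bar). The 5 fresh libraries lie at 3746 to 7291 CPM, and the 11 cultured libraries at 8967 CPM or above.

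Culture with vehicle went with higher replication transcripts in both genotypes. All 45 genes had a log2 fold change above 0 in WT, where 45.5% of all tested genes did. In KO 43 of 45 did, where 47.5% of all tested genes did. The median log2 fold change of the 45 was 1.39 in KO and 0.91 in WT, and the medians over all tested genes were −0.02 and −0.07. With edgeR's quasi-likelihood test and Benjamini-Hochberg adjustment over all genes, 15 of the 45 rose in KO, where 1.23% of all genes rose, and 9 in WT, where 1.23% of all genes rose. None of the 45 fell in either genotype. Without KO fresh replicate 1, 4 rose in KO, Pcna, Fen1, Tyms and Mcm2 (0.366% of all genes), and the median there was 1.27, so the other 11 KO calls were lost without that library. Without any 1 of the 6 WT libraries compared, 2 or 3 rose in WT, where 0.45% to 0.845% of all genes rose. Without WT PSGL-1 replicate 1, which enters the fit through the shared spread, 28 rose in KO (2.4% of all genes) and 15 in WT (1.87% of all genes). Without WT PSGL-1 replicate 2 the counts were much the same, 28 in KO (2.36% of all genes) and 16 in WT (1.88% of all genes). In 7 genes the test was passed in both: Mcm2, Mcm5, Mcm10, Pcna, Fen1, Rrm1 and Rrm2, where 0.729% of all genes were called higher in both. Every vehicle library lay above every fresh library for 41 genes in KO (15.3% of all genes). In WT this held for 31 genes (8.38% of all genes), and in both genotypes for 30 (5.15% of all genes). Without KO fresh replicate 1 it held in KO for 42 genes (22.6% of all genes). At an unadjusted p under 0.05, 38 were higher in KO (6.72% of all genes) and 26 in WT (6.74% of all genes).

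**Figure D2:**
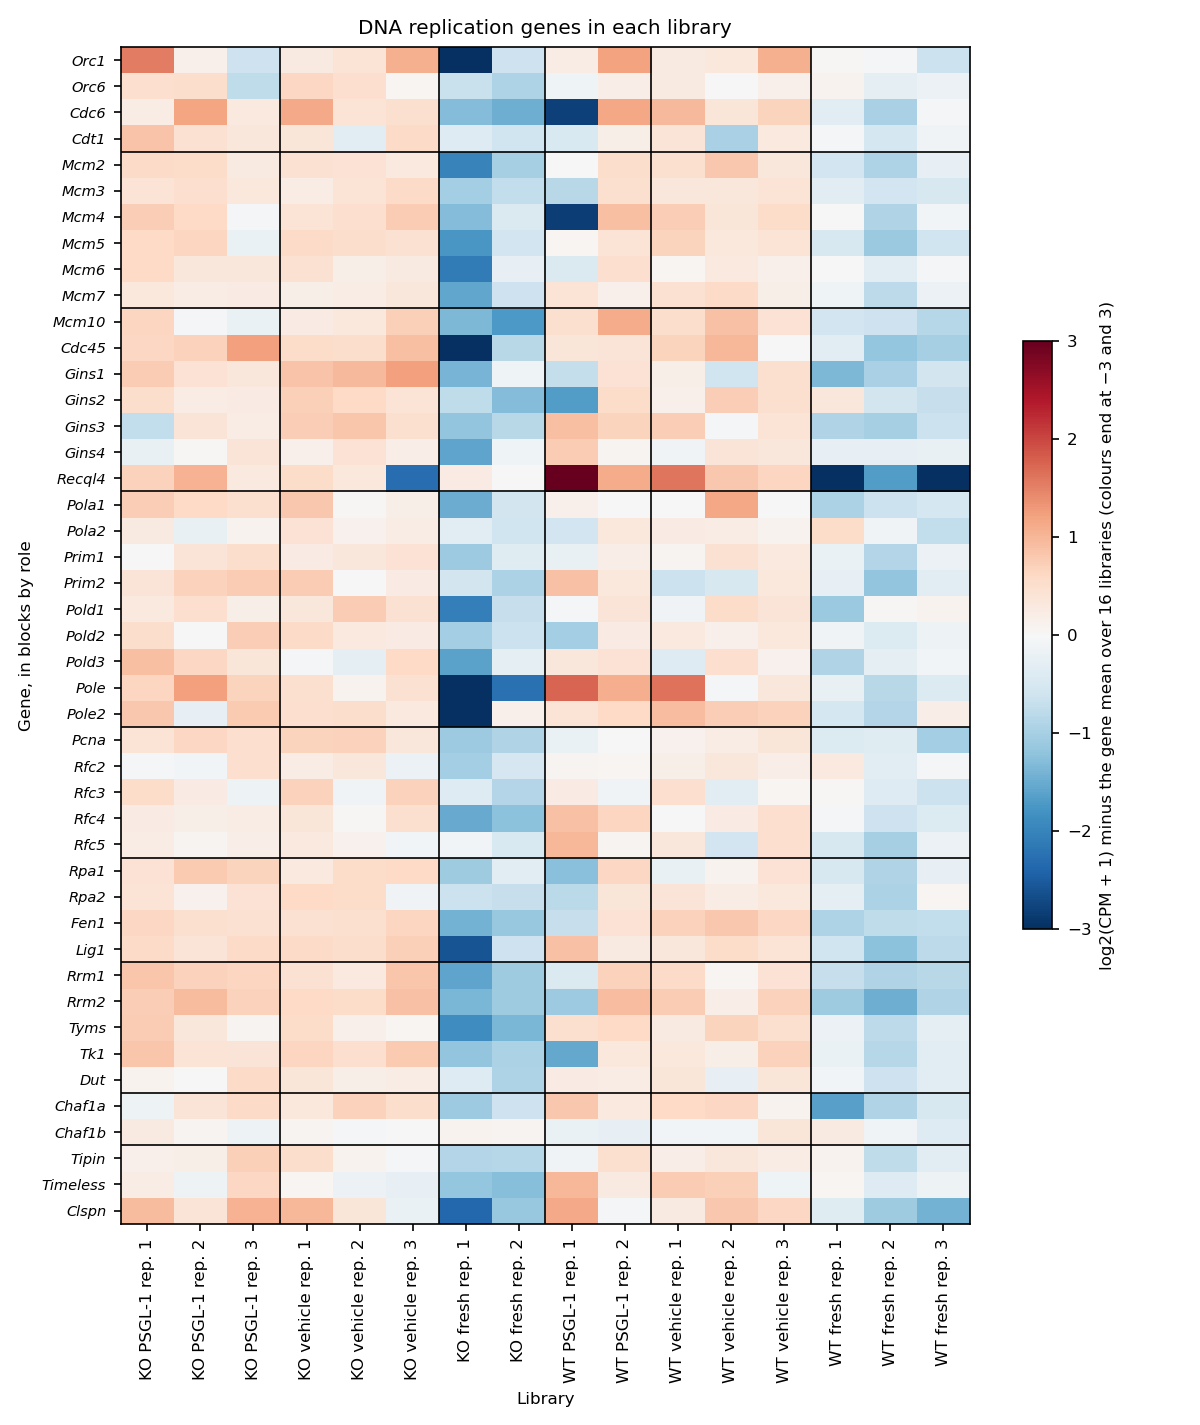
Level of each gene (rows, in blocks by role) in each library (columns), as log2(CPM + 1) minus the gene's mean over the 16 libraries. The 5 fresh columns are mostly blue (below the gene's mean) and the cultured columns mostly red (above it), Chaf1b is nearly even, Recql4 is lowest in the 3 WT fresh columns and in KO vehicle replicate 3, and WT PSGL-1 replicate 1 departs from the other cultured columns in both directions.

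Of the licensing genes none of 4 passed the test in either genotype. Cdc6, the ATPase that helps load the MCM ring, was at 157, 95.9 and 99.96 CPM in KO vehicle libraries and 28.2 and 25.3 CPM in KO fresh libraries. In WT, Cdc6 was at 142, 91.9 and 114 CPM with vehicle and 57.0, 35.7 and 70.0 CPM fresh. Vehicle and fresh libraries did not overlap for Cdc6 in either genotype, yet the spread left adjusted p at 0.231 in KO and 0.483 in WT. Orc1, the ATPase subunit of the origin recognition complex, had 0 counts in KO fresh replicate 1 and 15.4 CPM in KO fresh replicate 2, against 29.6 to 51.6 CPM in KO vehicle libraries. Cdt1, the partner of Cdc6 in loading, had log2 fold changes of 0.77 in KO and 0.34 in WT, among the smaller values of the 45. Orc6, the smallest subunit of the origin recognition complex, had log2 fold changes of 1.26 in KO (SE 0.44, edgeR adjusted p = 0.208) and 0.36 in WT (SE 0.38, 0.805).

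Of the 6 MCM ring genes 4 rose in KO and 2 in WT, where 1.23% of all genes rose in each genotype. Mcm2, a ring subunit that also binds histones, was at 634, 626 and 571 CPM in KO vehicle libraries and at 115 and 232 CPM in KO fresh libraries. The WT levels were 644, 817 and 589 CPM with vehicle and 313, 246 and 391 CPM fresh. Mcm2 rose 3.65-fold in KO (log2 1.87, SE 0.28, edgeR adjusted p = 0.00273) and 2.3-fold in WT (log2 1.2, SE 0.24, 0.0187). Its lowest vehicle library lay above its highest fresh library in both genotypes. Mcm2 kept its KO call in all 24 alternative fits and lost its WT call in 3. Mcm5, another ring subunit, rose by log2 1.62 in KO (SE 0.32, edgeR adjusted p = 0.0143) and 1.27 in WT (SE 0.27, 0.0287). Without KO fresh replicate 1 the KO value of Mcm5 was 1.18 (adjusted p = 0.216), and its WT call was lost in 7 of 24 alternative fits, among them each without 1 of the 6 WT libraries compared. Mcm7 rose by log2 1.32 in KO (SE 0.25, adjusted p = 0.0113), or 0.96 without KO fresh replicate 1 (adjusted p = 0.163), and was at 0.84 in WT, where it did not pass. Mcm3 rose in KO by log2 1.32 (SE 0.29, 0.0274). Mcm6 had the smallest value of the ring in WT, a log2 fold change of 0.39, and Mcm4 did not pass in either genotype.

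The 6 ring subunits work in equal numbers in each helicase, so their levels were also set side by side per length of transcript. In KO vehicle libraries Mcm4 averaged 89.7 ± 11.9 CPM per kb, against 181 ± 10.2 for Mcm2 and 277 ± 27.3 for Mcm6 (SD, n = 3). In WT vehicle libraries Mcm4 averaged 88.9 ± 11.1 CPM per kb, Mcm2 203 ± 35.3 and Mcm6 252 ± 20.9 (SD, n = 3). In WT fresh libraries the levels per kb were 50 ± 15.7 for Mcm4, 93.9 ± 21.5 for Mcm2 and 205 ± 25.2 for Mcm6 (SD, n = 3). Mcm4 was the lowest ring subunit per length in each group. Mcm2, Mcm3 and Mcm5 averaged 203 ± 35.3, 211 ± 6.33 and 206 ± 26.2 CPM per kb in WT vehicle libraries (SD, n = 3), which differ by less than the spread between libraries. In KO vehicle libraries Mcm3 and Mcm5 averaged 218 ± 26.4 and 213 ± 9.04 CPM per kb (SD, n = 3), also within that spread. Mcm2 lay below both there without overlap, at 169.5 to 188.2 CPM per kb. Mcm3 ran from 190.9 to 243.6 and Mcm5 from 203.1 to 220.6 CPM per kb. The order depends on the transcript taken for each gene, here the annotated one with the longest coding sequence.

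**Figure D3:**
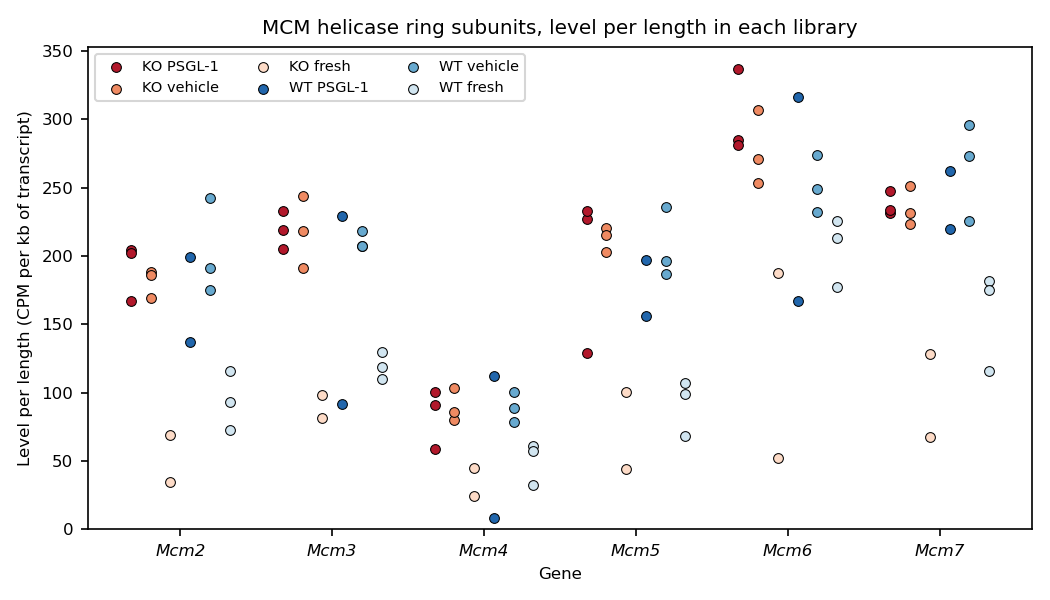
Level per length of the 6 MCM ring genes (x axis) in CPM per kb of transcript (y axis), 1 point per library, coloured by group. Mcm4 is lowest and Mcm6 or Mcm7 highest in the vehicle groups, and fresh libraries lie below vehicle libraries of the same genotype for each gene.

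Among the 7 genes of helicase activation, Mcm10 rose in both genotypes. Mcm10, which helps the loaded ring to start unwinding, was at 90.4, 94.8 and 126 CPM in KO vehicle libraries and 29.5 and 22.6 CPM in KO fresh libraries. WT cells had 110, 141 and 104 CPM with vehicle and 50.9, 49 and 42.0 CPM fresh. The log2 fold changes of Mcm10 were 2.01 in KO (SE 0.37, edgeR adjusted p = 0.0107) and 1.42 in WT (SE 0.31, 0.0328). The WT call was lost in 11 of 24 alternative fits, among them each fit without 1 of the 6 WT libraries compared. The KO call was lost in 3, with voom and without either KO fresh library (highest adjusted p = 0.0821). Cdc45, which binds the ring to form the active helicase, had log2 fold changes of 2.44 in KO (adjusted p = 0.061) and 1.5 in WT (0.212), with no overlap between vehicle and fresh libraries. Of the GINS genes, Gins1 to Gins4, none passed. Their log2 fold changes ran from 1.03 to 1.80 in KO and from 0.57 to 1.39 in WT. Of the annotated exon bases of Gins2, 67.3% are shared with Gse1 on the other strand.

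Recql4, a RecQ helicase that takes part in replication initiation, did not follow the other genes. It was at 28.9, 24.4 and 3.2 CPM in KO vehicle libraries and 23.3 and 19.7 CPM in KO fresh libraries, which overlapped. Its WT values were 61.0, 34.7 and 30.7 CPM with vehicle and 0.802, 5.4 and 1.07 CPM fresh, without overlap. Its log2 fold change was −0.17 in KO (SE 0.92, edgeR adjusted p = 1) and 4.22 in WT (SE 0.95, 0.0358). The KO value turned to 0.33 without KO vehicle replicate 3 and to 0.02 without KO fresh replicate 1. The WT call was lost in 10 of 24 alternative fits, with log2 values from 3.81 to 5.56. Of its annotated exon bases 9.7% are shared with Mfsd3 on the other strand, and no source used here gives the strand setting of the counting.

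Of the 9 polymerase and primase genes 2 rose in KO and none in WT, where 1.23% of all genes rose in each genotype. Pole, the catalytic subunit of polymerase epsilon, which copies the leading strand, was at 103, 78.0 and 101 CPM in KO vehicle libraries and 1.99 and 14.5 CPM in KO fresh libraries. In WT it was at 226, 70.7 and 91.9 CPM with vehicle and 62.3, 40.2 and 54.5 CPM fresh. Pole rose by log2 3.59 in KO (SE 0.69, edgeR adjusted p = 0.0126), the largest change of the 45 there, and had 1.40 in WT (SE 0.54, 0.284). The KO value was 2.78 without KO fresh replicate 1, where the adjusted p was 0.0867, and 5.54 without KO fresh replicate 2. Pold1, the catalytic subunit of polymerase delta, rose by log2 1.82 in KO (SE 0.39, 0.0254). Pola1, the catalytic subunit of polymerase alpha, had log2 fold changes of 1.39 in KO and 1.30 in WT and did not pass. Pole2, another subunit of polymerase epsilon, had 0 counts in KO fresh replicate 1 and 34.0 CPM in KO fresh replicate 2. The log2 fold changes of the other 5, Pola2, Prim1, Prim2, Pold2 and Pold3, lay between 0.74 and 1.25 in KO and between 0.29 and 0.78 in WT.

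Pcna, the sliding clamp, rose in both genotypes. It was at 424, 437 and 338 CPM in KO vehicle libraries and 126 and 143 CPM in KO fresh libraries. The WT levels were 295, 312 and 348 CPM with vehicle and 203, 208 and 133 CPM fresh. Pcna rose 3.05-fold in KO (log2 1.61, SE 0.23, edgeR adjusted p = 0.0017) and 1.88-fold in WT (log2 0.91, SE 0.20, 0.0266), with no overlap between vehicle and fresh. The KO call was kept in all 24 alternative fits and the WT call lost in 6. Pcna has processed copies annotated as Pcna-ps1 and Pcna-ps2, and no source used here says how reads with several matches were counted. Of the clamp loader genes, Rfc4 rose in KO by log2 1.73 (SE 0.30, adjusted p = 0.00743), or 1.63 without KO fresh replicate 1 (adjusted p = 0.0937), and had 0.71 in WT (0.236). Rfc2, Rfc3 and Rfc5, which encode further loader subunits, did not pass in either genotype, and Rfc5 had 0.40 in KO and 0.77 in WT.

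Among the 4 genes of single strand binding and lagging strand joining, Fen1 and Lig1 rose in KO and Fen1 in WT. The share of all genes that rose was 1.23% in each genotype. Fen1, the flap nuclease that trims Okazaki fragments, was at 443, 447 and 501 CPM in KO vehicle libraries and 120 and 146 CPM in KO fresh libraries. WT cells had 516, 563 and 495 CPM with vehicle and 169, 189 and 193 CPM fresh. Each vehicle library lay at more than 2-fold the highest fresh library of its genotype. Fen1 rose 3.58-fold in KO (log2 1.84, SE 0.27, edgeR adjusted p = 0.0019) and 3.06-fold in WT (log2 1.61, SE 0.23, 0.00195). Both calls were kept in all 24 alternative fits, with a highest adjusted p of 0.0394 in KO and 0.0131 in WT. Of the annotated exon bases of Fen1, 78.8% are shared with the antisense transcript Gm10143, whose reads cannot be told apart without strand. Lig1, the ligase that seals the fragments, rose by log2 1.99 in KO (SE 0.40, 0.0155) and had 1.38 in WT (SE 0.34, 0.054). Rpa1 and Rpa2, the large and middle subunits of replication protein A, had 1.19 and 1.08 in KO and 0.75 and 0.75 in WT, none past the test.

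Of the 5 genes of deoxynucleotide synthesis 4 rose in KO and 2 in WT, where 1.23% of all genes rose in each genotype. Rrm1, the large subunit of ribonucleotide reductase, was at 563, 503 and 733 CPM in KO vehicle libraries and 138 and 196 CPM in KO fresh libraries. Its WT values were 616, 426 and 555 CPM with vehicle and 255, 221 and 231 CPM fresh. Rrm1 rose 3.7-fold in KO (log2 1.89, SE 0.30, edgeR adjusted p = 0.00443) and 2.42-fold in WT (log2 1.27, SE 0.26, 0.0197). Without KO fresh replicate 1 its KO value was 1.70 (adjusted p = 0.0784), and its WT call was lost in 5 of 24 alternative fits. Rrm2, the small subunit, rose 3.82-fold in KO (log2 1.93, SE 0.43, 0.0329) and 3.49-fold in WT (log2 1.81, SE 0.37, 0.0222). Its KO call was lost in 8 of 24 alternative fits and its WT call in 5. Tyms, thymidylate synthase, was at 325, 245 and 230 CPM in KO vehicle libraries and 59.9 and 85.0 CPM in KO fresh libraries. In WT, Tyms was at 267, 352 and 310 CPM with vehicle and 195, 128 and 184 CPM fresh. Tyms rose by log2 1.92 in KO (SE 0.28, 0.00195), kept in all 24 alternative fits, and had 0.97 in WT (SE 0.24, 0.0531). A processed copy, Tyms-ps, is annotated on chromosome 10. Tk1, thymidine kinase, rose in KO by log2 1.76 (SE 0.42, 0.0479), and Dut, which removes dUTP, had 0.91 in KO and 0.61 in WT.

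The pair of chromatin assembly genes split. Chaf1a, the large subunit of chromatin assembly factor 1, was at 159, 205 and 185 CPM in KO vehicle libraries and 58.7 and 82.5 CPM in KO fresh libraries. In WT it was at 192, 195 and 136 CPM with vehicle and 40.2, 67.6 and 90.8 CPM fresh. Chaf1a rose in WT by log2 1.49 (SE 0.30, edgeR adjusted p = 0.0203) and had 1.42 in KO (SE 0.35, 0.0539). The WT call of Chaf1a was lost in 5 of 24 alternative fits. Of its annotated exon bases 52.5% are shared with Ubxn6. Chaf1b, the middle subunit of the same complex, was at 206, 189 and 197 CPM in KO vehicle libraries and 209 and 205 CPM in KO fresh libraries. In WT, Chaf1b was at 184, 184 and 252 CPM with vehicle and 236, 181 and 149 CPM fresh. Its groups overlapped, with log2 fold changes of −0.04 in KO (SE 0.24, adjusted p = 1) and 0.23 in WT (SE 0.22, 0.75). The fork protection genes Timeless and Tipin, partners in 1 complex, and Clspn (claspin), an adaptor of the Chk1 kinase, did not pass. In that order they had log2 fold changes of 1.15, 1.12 and 2.20 in KO and 0.75, 0.63 and 1.58 in WT.

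**Figure D4:**
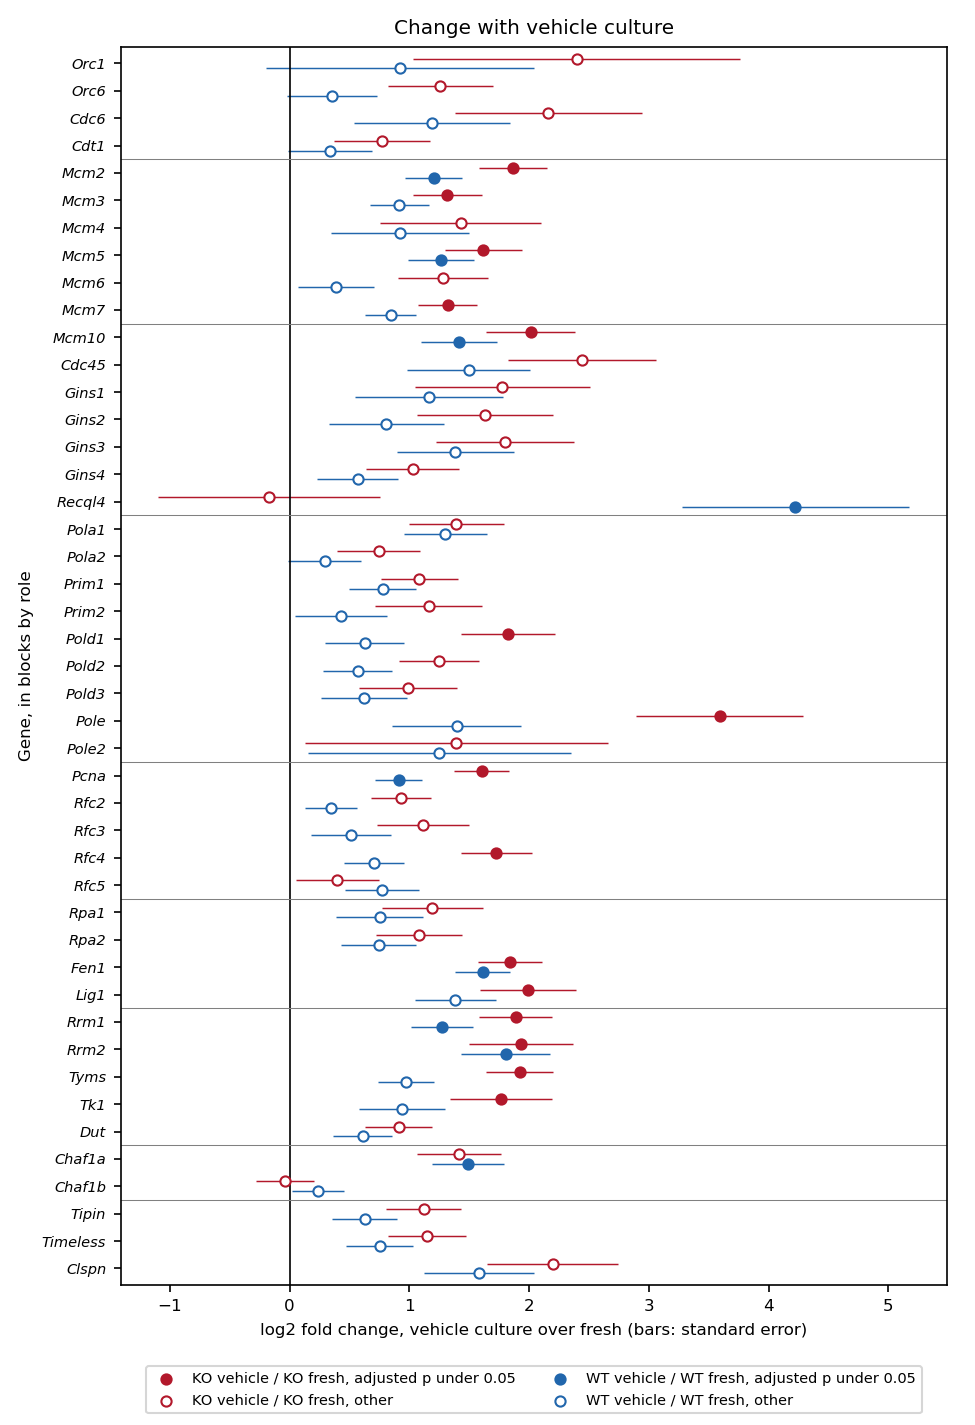
Log2 fold change of vehicle culture over fresh cells (x axis, bars are standard errors) for each gene (rows, in blocks by role), KO in red and WT in blue, filled where the edgeR adjusted p was under 0.05. All 45 WT points and 43 of 45 KO points lie above 0, and Recql4 and Chaf1b are the KO points below it.

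In fresh cells the summed level of the 45 genes was 3746 and 5468 CPM in KO and 7291, 5585 and 6903 CPM in WT. The groups did not overlap, by a margin of 5468 CPM in the higher KO library against 5585 CPM in the lowest WT library. The ratio of the means was 0.699. With edgeR's test none of the 45 passed, where 0.0% of all genes were lower and 0.00708% higher. At an unadjusted p under 0.05, 9 of the 45 were lower in KO (1.47% of all genes) and 1 was higher (1.37% of all genes). With DESeq2, 3 were lower, Tyms, Pole and Rfc4, where 0.432% of all genes were lower. With voom none of the 45 was called, where 0.0% of all genes were lower. None was called with other scaling in edgeR or with the compared groups fitted alone. Of the 45, 40 had a log2 fold change below 0, where 49.2% of all genes did, and the median was −0.45, against 0 over all genes. All KO libraries lay below all WT libraries for 16 genes (9.95% of all genes) and above them for Recql4 (9.1% of all genes).

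The fresh values moved with single libraries. KO fresh replicate 1 had the lowest level of the 5 fresh libraries for 29 of the 45 genes, and KO fresh replicate 2 for 8. Without KO fresh replicate 2, 6 genes were lower by edgeR's test (0.508% of all genes) and the median was −0.66. Without KO fresh replicate 1, no gene passed, the median was −0.35, the ratio of the mean sums was 0.829, and the remaining KO library lay below all WT libraries for 19 genes (18.5% of all genes) and above them for 3 (24.9%). Without WT fresh replicate 1 the median was −0.33. Granulocyte and monocyte markers summed to 653 and 658 CPM in fresh KO cells and 443 to 526 CPM in fresh WT cells, and B and T cell markers to 59.5 to 94.9 CPM in KO and 115 to 130 CPM in WT. The part of library quality and of these markers in the difference was not tested.

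The following genes were taken as those with the smallest p of each role in this comparison, so their differences are described with that choice in mind. Tyms was at 59.9 and 85.0 CPM in fresh KO cells and 195, 128 and 184 CPM in fresh WT cells. Its log2 difference was −1.18 (SE 0.27, edgeR adjusted p = 1 over all genes), with both KO libraries below all WT libraries. Pole was at 1.99 and 14.5 CPM in KO and 62.3, 40.2 and 54.5 CPM in WT, and differed by log2 −2.67 (SE 0.66). Rfc4 was at 32.2 and 39.7 CPM in KO and 91.3, 60.8 and 70.1 CPM in WT, with a difference of −1.0 (SE 0.29). The KO libraries of these genes did not reach the WT range.

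Timeless was at 62.4 and 57.6 CPM in fresh KO cells and 147, 108 and 127 CPM in fresh WT cells, and differed by log2 −1.03 (SE 0.32). Mcm2 was at 115 and 232 CPM in KO and 313, 246 and 391 CPM in WT, and differed by log2 −0.84 (SE 0.27). Orc6 was at 34.7 and 28.8 CPM in KO and 60.2, 45.4 and 49.6 CPM in WT, a difference of −0.65 (SE 0.43). For all 3 the groups did not overlap and the edgeR adjusted p was 1. Fen1 was at 120 and 146 CPM in KO and 169, 189 and 193 CPM in WT, a difference of −0.42 (SE 0.25) without overlap. Chaf1b had a log2 difference of 0.18 (SE 0.24) with overlapping groups. Recql4 went the other way, at 23.3 and 19.7 CPM in KO and 0.802, 5.4 and 1.07 CPM in WT, and differed by log2 3.22 (SE 0.95, adjusted p = 1).

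**Figure D5:**
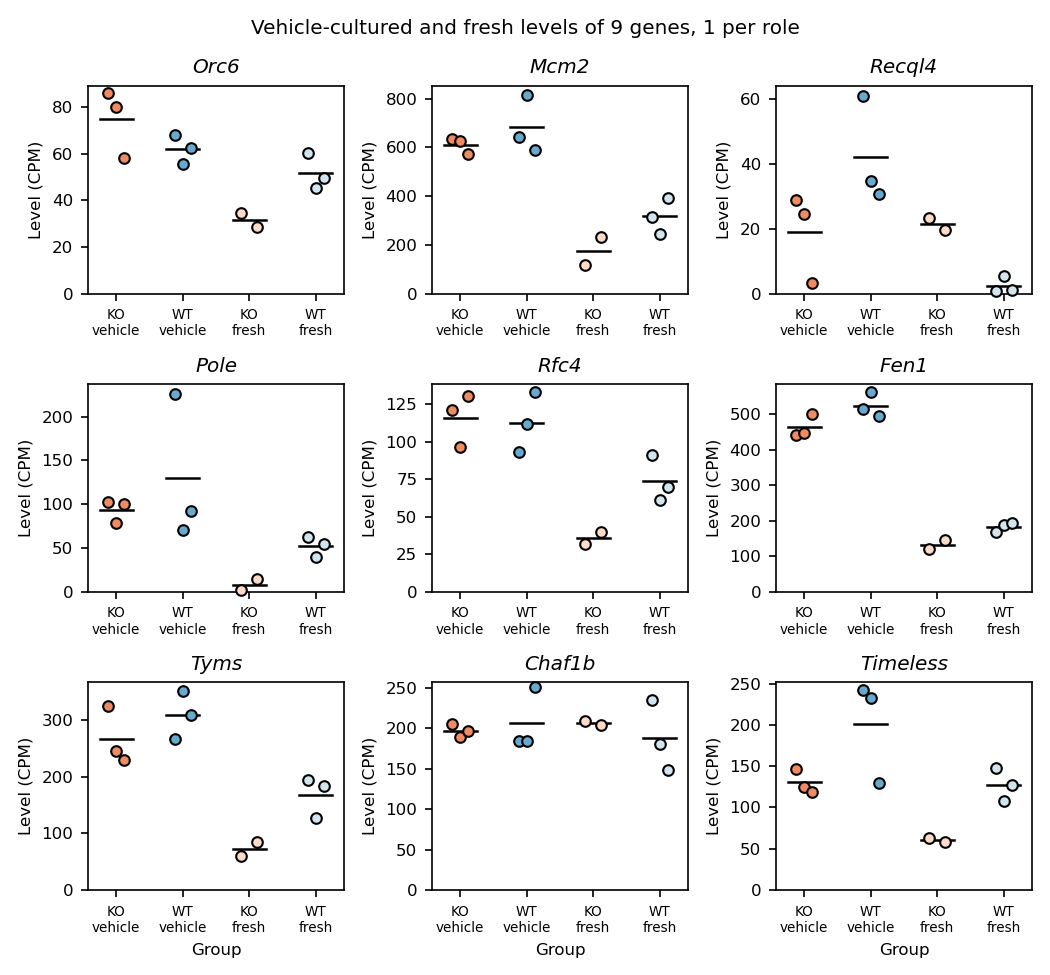
Level in CPM (y axes, from 0) of 9 genes, 1 per role, in KO vehicle, WT vehicle, KO fresh and WT fresh libraries (x axes; points are libraries, lines are means). In fresh cells the KO points of Tyms, Pole, Rfc4, Timeless, Mcm2, Orc6 and Fen1 lie below the WT points, those of Recql4 lie above them, and those of Chaf1b lie within their range.

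After vehicle culture the genotypes were close. The mean level in KO was within 1.5-fold of that in WT for 41 of the 45 genes, where this held for 58.9% of all tested genes. In fresh cells it held for 25 of 45, where it held for 57.3% of all tested genes, and for 32 of 45 without KO fresh replicate 1 (58.2%). The median log2 difference was 0.03 and the ratio of the mean sums 1.02. None of the 45 passed edgeR's test, where 0.00708% of all genes were called in either direction, and 1 had an unadjusted p under 0.05 (2.83% of all genes). That gene was Timeless, at 147, 125 and 119 CPM in KO and 242, 233 and 129 CPM in WT (log2 −0.64, SE 0.28, adjusted p = 1). Gins1, a GINS subunit, was higher in each KO library, at 42.9, 46.7 and 55.3 CPM against 26.5, 14.9 and 32.5 CPM in WT (5.76% of all genes were higher without overlap). Recql4 and Pole2 were lower in each KO library (3.72% of all genes).

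The log2 fold change with culture was higher in KO than in WT for 41 of the 45 genes, as for 52.0% of all genes, and the median difference of the log2 fold changes was 0.51, against 0.04 over all genes. This difference and that between fresh KO and WT share the fresh libraries and are no separate evidence. No gene passed the edgeR test of the difference itself, where 0.0% of all genes passed, and at an unadjusted p under 0.05 there were 6 (2.5% of all genes). In 5 of these the KO change was larger: Pole by log2 2.20 (SE 0.82), Pold1 by 1.2 (SE 0.50), Rfc4 by 1.02 (SE 0.38), Tyms by 0.95 (SE 0.35) and Pcna by 0.69 (SE 0.29). In Recql4 it was smaller by log2 −4.40 (SE 1.27), with an edgeR adjusted p of 1 for all 6. Without KO fresh replicate 2, 3 genes passed (0.207% of all genes) and the median difference was 0.80, and without KO fresh replicate 1 none passed and it was 0.34.

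In KO cells the replication genes with PSGL-1 lay near their vehicle levels. The summed level was 12394, 11757 and 11455 CPM in KO PSGL-1 libraries and 11930, 11306 and 11727 CPM in KO vehicle libraries, which overlapped, with a ratio of 1.02. The mean with PSGL-1 was within 1.5-fold of that with vehicle for 43 of the 45 genes, as for 66.0% of all genes, and the median log2 fold change was 0.00. None of the 45 passed edgeR's test, where 0.0% of all genes passed, and none had an unadjusted p under 0.05, where 1.4% of all genes did. Pole was higher in each PSGL-1 library, at 114, 171 and 115 CPM against 103, 78.0 and 101 CPM with vehicle (4.24% of all genes were higher without overlap), with a log2 fold change of 0.50. Gins1 and Gins3 were lower in each PSGL-1 library (3.74% of all genes), by log2 values of −0.53 and −0.69.

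In WT cells the summed level was 8967 and 11774 CPM in PSGL-1 libraries and 11477, 11399 and 11304 CPM in vehicle libraries. The 2 PSGL-1 libraries differed from each other more than the vehicle libraries did. WT PSGL-1 replicate 2 was within 1.5-fold of the vehicle mean for 43 of the 45 genes (54.4% of all genes), and WT PSGL-1 replicate 1, the library with few detected genes, for 26 (22.7% of all genes). That library lay below all other cultured libraries for 18 of the 45 genes, where it did so for 27.3% of all tested genes, and above them for 11, where it did so for 19.0%. Mcm4 stood at 29.8 CPM there, against 211 to 402 CPM in the other 10 cultured libraries, and Recql4 at 219 CPM, against 3.2 to 61.0 CPM. None of the 45 passed edgeR's test of PSGL-1 against vehicle in WT, where 0.0% of all genes passed, and 1 had an unadjusted p under 0.05 (5.69% of all genes). That gene was Fen1, at 200 and 437 CPM with PSGL-1 and 516, 563 and 495 CPM with vehicle (log2 −0.72, SE 0.25, adjusted p = 0.774). Both PSGL-1 libraries lay above all vehicle libraries for 2 genes, Prim2 and Rfc4 (5.87% of all genes), and below them for 5, Pole2, Pcna, Rfc2, Fen1 and Chaf1b (8.1% of all genes). The median was −0.14, against −0.11 over all genes, and 0.05 without WT PSGL-1 replicate 1.

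Between genotypes with PSGL-1, none of the 45 passed edgeR's test, where 0.00708% of all genes passed, and 3 had an unadjusted p under 0.05 (5.81% of all genes). The median was 0.15, against 0.17 over all genes, and −0.02 without WT PSGL-1 replicate 1. Pcna was at 358, 414 and 381 CPM in KO and 234 and 270 CPM in WT, without overlap (log2 0.59, SE 0.22, adjusted p = 0.765). The other 2 genes were Tk1 and Recql4. All KO libraries lay above all WT libraries for 7 genes, Cdt1, Cdc45, Pola1, Pcna, Fen1, Tk1 and Chaf1b (11.5% of all genes), and below them for Gins3, Recql4 and Rfc4 (6.32% of all genes). In the difference of the PSGL-1 response between genotypes none of the 45 passed, where 0.0% of all genes passed, and none had an unadjusted p under 0.05, where 4.33% did. Its median was 0.19, against 0.15 over all genes, and −0.06 without WT PSGL-1 replicate 1.

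Other genes of the pathway were read from lists of factors outside the 45. Beside the counts of these lists, 1.23% of all tested genes rose with vehicle culture in KO and 1.23% in WT. Of 17 licensing and firing factors 1 rose with vehicle culture in each genotype, with medians of 1.56 in KO and 0.64 in WT. This was Ccna2, cyclin A2, which averaged 241 ± 53.6 CPM in KO vehicle libraries and 40.7 ± 28.5 CPM in KO fresh libraries. Its log2 fold change was 2.63 in KO (edgeR adjusted p = 0.00399) and 1.47 in WT (0.0415). Of 21 fork and maintenance factors 4 rose in KO and 1 in WT, among them Top2a, the topoisomerase of dividing cells (log2 2.13 in KO, adjusted p = 0.000556, and 0.94 in WT, 0.0411), and, in KO, the maintenance methyltransferase Dnmt1 (log2 1.73, 0.0126). Of 20 genes of nucleotide supply 1 rose in KO, Nme1, and 2 in WT, Nme1 and Nme2, both nucleoside diphosphate kinases that lie side by side and are similar in sequence.

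Of 9 genes of histone supply 2 rose in KO, the histone mRNA binding protein gene Slbp (log2 1.21, edgeR adjusted p = 0.0136) and the histone chaperone gene Asf1b (log2 2.53, 0.0329), and none in WT. Here too the share of all tested genes that rose was 1.23% in each genotype. Of 12 E2F and pocket protein genes 1 rose in each genotype, Tfdp1, the dimer partner of E2F factors (log2 1.38 in KO, 0.0197, and 1.21 in WT, 0.0212). Of 17 tested genes of S phase checkpoint and repair 2 rose in KO, among them Rad18, a ubiquitin ligase that modifies PCNA (log2 2.12, 0.00639), and 1 in WT, Rad18 (log2 1.32, 0.0379). None of these genes fell with culture, and none passed in the other 7 comparisons.

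Genes of mitosis, which act later in the cycle, were set beside the 45. Of 26, 8 rose with vehicle culture in KO (1.23% of all genes) and 5 in WT (1.23% of all genes). The medians of the 26 were 1.92 and 1.17, against 1.39 and 0.91 for the replication genes. In fresh cells 22 of 26 were below 0 in KO against WT with a median of −0.59, and 40 of 45 replication genes with a median of −0.45. Of all tested genes 49.2% were below 0 there. No test between these lists was made, so nothing here is particular to replication rather than to the cell cycle.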

How the data were processed

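Per the submitters' processing notes, reads were aligned to mm10 with STAR 2.7.5c and counted with featureCounts, MultiQC 1.10 was used for quality reports, and DESeq2 is named without a version. Per the labels' protocols, RNA was amplified with a SMART Ultra-Low Input kit. The authors deposited whole-number counts per gene for 25239 genes in 16 libraries. The strand setting is in no source used here.

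Genes passing edgeR's expression filter (14124) were fitted together in 1 model with 6 groups, using TMM scaling and the quasi-likelihood test (edgeR 4.0.16, R 4.3.3), and p-values were adjusted by Benjamini-Hochberg over all tested genes at a threshold of 0.05. DESeq2 1.42.0 and limma 3.58.1 (voom with library quality weights) were alternatives, beside other scaling and filters, fits of the compared groups alone, replicate blocks and leaving out each library. The common biological coefficient of variation was 0.977. CPM values are counts per 1000000 of the library total, without TMM. The scripts were tested on simulated data.

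The 45 genes and all lists were chosen with earlier results of these data known. Values of every library are given for genes past the threshold, at most the 10 with the smallest adjusted p per comparison, and for the gene with the smallest p per role in fresh KO against WT. Other members were named to fill their role after their values were seen. In the lists outside the 45, at most 2 called genes per list are named. Some genes outside the 45 are not reported here. The deviations of same-numbered libraries had a correlation over 0.1 in 0 of 36 pairs, and those of differently numbered libraries in 0 of 70. With large scatter between libraries and pairs of KO with WT among these, the check could not show that libraries were unpaired. The numbers were not taken to pair them. Counting error and 3-count floors do not cover amplification.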

Additional observations from a re-analysis of the deposited data

Results flagged for a closer look

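Some genes had KO libraries all on one side of the WT libraries in fresh cells and all on the other side in culture. Such a lack of overlap was common in groups this small. In fresh cells 9.95% of all genes were lower in KO without overlap and 9.1% higher. With vehicle these shares were 3.72% and 5.76%, and with PSGL-1 6.32% and 11.5%. The share of all genes that switched sides is not given here, so these genes cannot be set against it. Recql4 had a log2 difference of 3.22 in fresh cells, with both KO libraries above all WT libraries, and −1.18 with vehicle, with all KO libraries below. The difference between these was tested as the culture response (log2 −4.40, edgeR unadjusted p = 0.00348, adjusted p = 1). With PSGL-1, Recql4 had −2.02, again with all KO libraries below all WT libraries, and the difference from fresh cells was not tested.

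Fen1 had a log2 difference between KO and WT of −0.42 in fresh cells and 0.52 with PSGL-1, and the groups did not overlap in either. Tk1 had −0.60 in fresh cells and 0.87 with PSGL-1, also without overlap. These differences were not tested. The PSGL-1 values rest in part on WT PSGL-1 replicate 1, where Fen1 was at 200 CPM, Tk1 at 60.0 CPM and Recql4 at 219 CPM, against 437, 220 and 43.4 CPM in WT PSGL-1 replicate 2.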

How the results depend on the processing

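With DESeq2, 27 of the 45 genes rose with culture in KO (3.69% of all genes), 16 in WT (3.04%) and 3 were lower in fresh KO cells. With voom 15 rose in KO (1.27%), 14 in WT (2.92%) and 0 were lower in fresh KO cells. Leaving out 1 library at a time gave 4 to 28 called with culture in KO, with medians of 1.27 to 1.80, and 2 to 16 in WT, with medians of 0.76 to 0.99. In fresh KO against WT it gave 0 to 6 called and medians of −0.66 to −0.33, and for the difference in culture response 0 to 3 and 0.34 to 0.80. For KO against WT with PSGL-1 it gave 0 to 12 and −0.016 to 0.42, for PSGL-1 in WT 0 to 11 and −0.41 to 0.053, and for the difference in PSGL-1 response 0 to 9 and −0.057 to 0.39. The upper counts of these last 3 came without WT PSGL-1 replicate 2, where 17.2%, 17% and 14.6% of all genes were called in the direction of all these genes but Recql4, which was lower in KO (2.68% of all genes lower). KO against WT with vehicle and PSGL-1 in KO gave 0 throughout. The replicate block on the title numbers gave 12 called with culture in KO, 7 in WT and 0 in fresh cells. That on sets of 6 library numbers gave 16, 8 and 0. The shares of all genes called in these block fits are not given, so these counts cannot be set against them.

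Over 24 alternatives, 881 gene values kept their direction and side of the threshold, 72 lost the call, 28 gained it and 3 turned direction. The values that turned direction were Recql4 with culture in KO (0.017 without KO fresh replicate 1, 0.33 without KO vehicle replicate 3, range −0.62 to 0.33) and Chaf1b in KO (0.036 without KO fresh replicate 1, range −0.092 to 0.036). The cause was not tested. With 2 libraries in KO fresh and in WT PSGL-1, leaving out 1 leaves a single sample assumed to vary like the other groups, and small changes were not detectable at this replication.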
